A study of Rattus norvegicus with 10 samples.

Results

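The genes described here encode subunits of the Polycomb repressive complexes: Ring1, Rnf2, Bmi1, Phc1, Cbx2, Cbx8 and Scml2 of PRC1, and Ezh2, Eed and Suz12 of PRC2. They were taken by gene name, and all 10 names matched 1 row each among the 32545 genes listed in every library. The set was chosen by name with the FPKM values of these same libraries already known, age differences included, and Ring1 had earlier been named by its rank in the age comparison. The age differences of these 10 genes are therefore a description and support no test. Round spermatids, the haploid cells that form at the end of meiosis and go on to become sperm, were collected from wild-type (WT) Brown Norway rats of 2 ages. The young group was 4-6 months old (5 libraries) and the aged group 18-20 months old (5 libraries). Both groups were kept under normal conditions with free access to food and water, and neither received an agent. Germ cells were separated by STA-PUT, in which cells of a testis suspension settle through a gradient by size. The labels do not state whether a library came from 1 animal or a pool, so any test measures only the spread between these libraries, which may be technical.

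Polycomb complexes keep developmental genes silent through histone marks. PRC2 carries the methyltransferase EZH2 and methylates a lysine of histone H3, and PRC1 carries the E3 ligases RING1 or RNF2 and attaches ubiquitin to histone H2A. In the male germ line these complexes are known for holding the genes of other lineages silent while sperm are formed, and SCML2 is a germline partner of PRC1.

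The stretch just upstream of the transcription start is shown for 4 of these genes: Ring1 and Suz12, whose age groups did not overlap, Phc1, the most abundant, and Cbx8, among the least abundant. The sequences are the 250 bases before the annotated start in RefSeq, assembly GRCr8, written 5′ to 3′ on the strand of the gene. The files list Ring1 on the minus strand, and their coordinates differ from those of GRCr8. Capitals mark matches, on either strand, to the motifs searched: the cAMP response element (CRE) TGACGTCA, its half-site TGACG, the Sp site GGGCGG, the box CCAAT, the ETS site CCGGAAG, the YY1 site AAGATGGC and the box TATAAA. A full CRE contains half-sites, and neighbouring capitals can belong to adjoining motifs.
Ring1, chr20:4831763-4832012, plus strand: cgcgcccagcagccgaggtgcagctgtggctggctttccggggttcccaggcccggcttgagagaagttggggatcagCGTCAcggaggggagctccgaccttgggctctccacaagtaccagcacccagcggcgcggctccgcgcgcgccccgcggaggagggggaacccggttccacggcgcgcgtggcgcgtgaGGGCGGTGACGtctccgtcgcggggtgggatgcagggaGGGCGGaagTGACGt
Suz12, chr10:65464719-65464968, plus strand: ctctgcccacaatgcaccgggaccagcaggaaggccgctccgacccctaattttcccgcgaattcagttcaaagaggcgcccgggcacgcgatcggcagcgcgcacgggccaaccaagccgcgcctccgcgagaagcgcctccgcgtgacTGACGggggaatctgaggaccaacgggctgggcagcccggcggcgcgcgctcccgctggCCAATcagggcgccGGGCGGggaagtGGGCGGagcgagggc
Phc1, chr4:157204561-157204810, minus strand: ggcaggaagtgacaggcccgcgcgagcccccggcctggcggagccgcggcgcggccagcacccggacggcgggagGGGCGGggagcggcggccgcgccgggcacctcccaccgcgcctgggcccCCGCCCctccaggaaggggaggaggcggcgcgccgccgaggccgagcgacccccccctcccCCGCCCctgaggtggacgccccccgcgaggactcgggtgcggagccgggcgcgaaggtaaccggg
Cbx8, chr10:104795501-104795750, minus strand: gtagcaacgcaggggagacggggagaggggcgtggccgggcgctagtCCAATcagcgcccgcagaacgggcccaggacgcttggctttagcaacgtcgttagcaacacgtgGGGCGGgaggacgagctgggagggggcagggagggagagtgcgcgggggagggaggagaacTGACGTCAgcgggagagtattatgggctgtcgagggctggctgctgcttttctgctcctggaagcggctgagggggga

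These are CpG-rich sequences. The Phc1 window holds 38 CpG dinucleotides, more than 98.31% of all 33469 RefSeq windows of that length. Suz12 has 33, Ring1 31 and Cbx8 20. The table had windows for 9 of the 10 genes, with 3 starts for Scml2, and the 11 windows had a median of 20 CpG and a GC content of 63.6%, against 5 and 51.2% over all windows. The windows of the autosomal members hold 12 to 38 CpG, those of the X-linked Scml2 6, 6 and 2. An Sp site was in the windows of 7 of 9 genes (30.47% of all windows), a CRE half-site in 5 of 9 (18.22%) and CCAAT in 4 of 9 (34.02%). The full CRE, the element bound by CREB and by the spermatid activator CREM, was in 1 of 9, that of Cbx8, and in 1.587% of all windows. The letters of the ETS site (7.272% of all windows), the YY1 site (1.631%) and TATAAA (12.93%) were in none of the 9 genes' windows. A match is a description of the letters only.

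Assigned fragments numbered 14488222 to 17401744 per young library and 15992576 to 18203223 per aged library. Spermatid genes dominated: the summed FPKM (fragments per kilobase, scaled to library size) of 12 spermatid markers, among them the protamine Prm1 and the transition protein Tnp2, was 20922 to 33420 in young and 20983 to 27502 in aged libraries. Markers of meiotic spermatocytes summed to 265 to 372 and 243 to 306 FPKM, with 1 of 12 (Tex101) higher on average in aged libraries. Spermatogonial markers summed to 75.3 to 91.9 and 74.8 to 91.8 FPKM. Markers of somatic testis cells were higher in aged libraries. The 8 Leydig markers summed to 5.38 to 8.57 FPKM in the young and 11.0 to 124 in aged libraries, with 8 of 8 higher on average, and the 13 peritubular and stromal markers to 62.8 to 95.7 and 99.8 to 269 FPKM, with 13 of 13 higher. The 13 Sertoli markers summed to 28.4 to 38.8 and 35.3 to 143 FPKM (11 of 13 higher), and the 12 macrophage markers to 16.0 to 28.0 and 21.3 to 111 FPKM (11 of 12 higher). Aged libraries 1 and 2 stood apart in the Leydig and macrophage sums: without them the aged ranges were 11.0 to 17.7 and 21.3 to 21.9 FPKM. Of the defining markers, the Sertoli factor Gata1 was at 0 in 9 of 10 libraries, the Leydig enzyme Hsd3b1 in 4, and the Sertoli genes Rhox5, Amh and Fshr in 1 each. In bulk RNA, a different number of cells of a type and a different amount of RNA per cell cannot be told apart.

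Phc1 was the most abundant of the 10 genes and the CBX genes Cbx2 and Cbx8 the least. Levels per length ran in the order Phc1, Bmi1, Ring1, Ezh2, Suz12, Eed, Rnf2, Scml2, Cbx2 and Cbx8, from a mean over the 10 libraries of 115.7 FPKM for Phc1 to 0.362 FPKM for Cbx8. Phc1 lay above 92.0% of the 12985 genes tested for age, those that averaged 1 FPKM or more, whose median was 8.10 FPKM. Bmi1 (32.9 FPKM) and Ring1 (23.8 FPKM) lay above 76.4% and 71.1%, and Scml2 (2.25 FPKM) above 20.4%. The ranges of neighbours in the order did not overlap except in 3 cases. Ring1 exceeded Ezh2 in 10 of 10 libraries, Suz12 exceeded Eed in 7 of 10, and Cbx2 exceeded Cbx8 in 8 of 10.

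**Figure D1:**
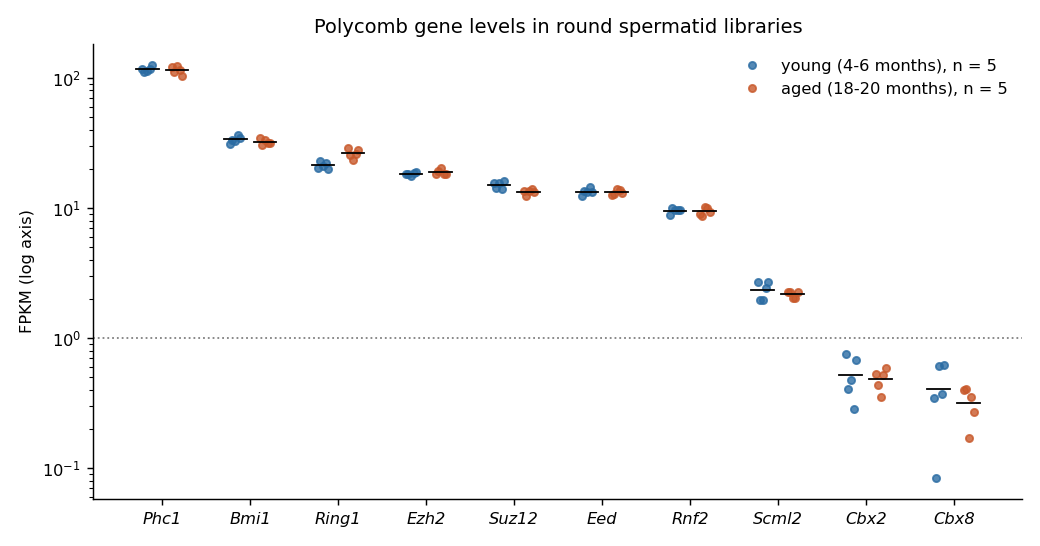
FPKM of the 10 Polycomb genes in each library, on a log axis, with young (4-6 months) and aged (18-20 months) libraries as points and each group's mean as a bar, n = 5; the dotted line is the minimum mean of 1 FPKM for the age comparison. The genes run from Phc1, near 115.7 FPKM, to Cbx2 and Cbx8, which stayed under the line in every library.

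With age, 2 of these genes had groups that did not overlap: Ring1 was 24.3% higher and Suz12 12% lower in aged libraries. No gene of the series passed the threshold of 0.05 on the adjusted p of limma, a linear model fitted across all genes: 0 of 12985 (0%), and 0 with voom, its version for counts. An unadjusted p under 0.05 was found for 1544 genes (11.9%), and the age groups of 338 genes (2.6%) did not overlap. Of the 10 Polycomb genes 8 reached the minimum mean of 1 FPKM, and among these 2 had an unadjusted p under 0.05 and the same 2 had groups that did not overlap. Nothing is read from these counts, since the set was chosen with the contrast known. In the comparison, 2 of the 8 had a positive and 6 a negative log2 difference, with a median of -0.02, where the median over all tested genes was -0.02 and 45.5% were positive.

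**Figure D2:**
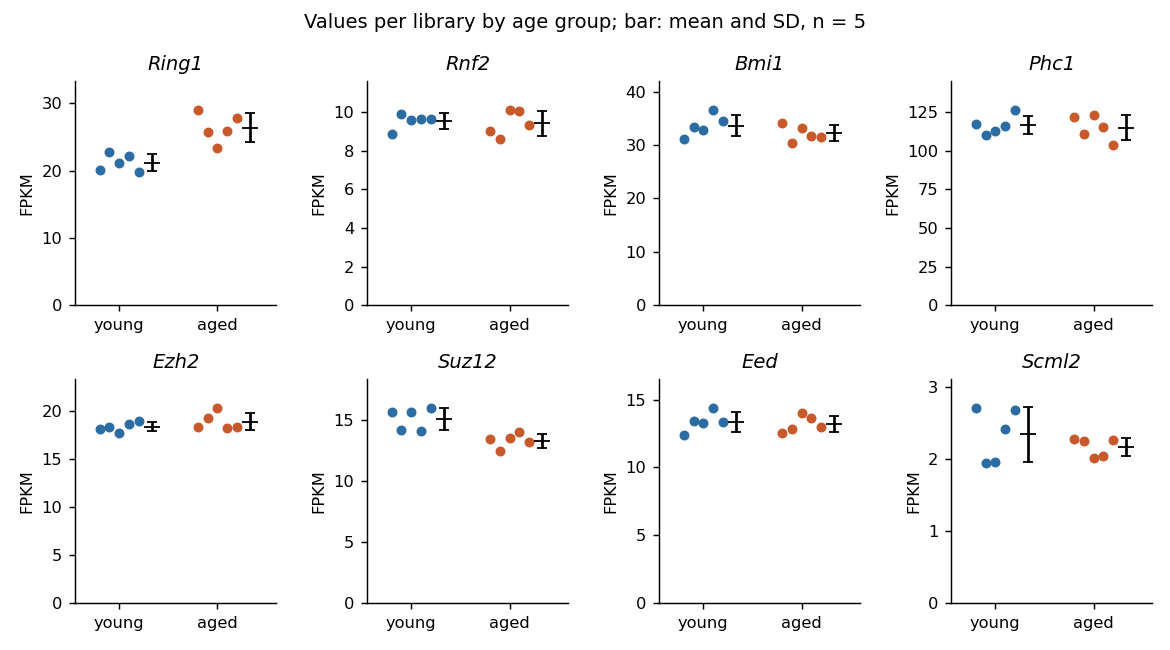
FPKM per library (points) by age group for the 8 Polycomb genes tested, each axis starting at 0, with the mean and SD of 5 libraries beside the points. In the Ring1 panel all aged points lie above the young ones, in the Suz12 panel all lie under them, and in the other 6 panels the groups overlap.

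Ring1 encodes one of the alternative catalytic E3 subunits of PRC1 (ENSRNOG00000000467, chromosome 20, 3812287 to 3815834, minus strand, in the coordinates of the files, whose build the sources used here do not name). Its values were 20.16, 22.79, 21.10, 22.13 and 19.82 FPKM in the young libraries and 28.96, 25.67, 23.40, 25.92 and 27.86 FPKM in the aged ones. Every aged library was above every young one, and aged library 3, at 23.40 FPKM, came closest to the young maximum of 22.79. The means were 21.2 ± 1.26 FPKM over the young and 26.4 ± 2.15 FPKM over the aged libraries (SD, n = 5). The difference on the log2(FPKM + 1) scale was 0.30 (SE 0.06, 95% interval 0.16 to 0.44), or 1.12- to 1.36-fold on that scale. It did not pass adjustment over all genes (limma, adjusted p = 0.319). The counts behind it were 524 to 921 fragments per library.

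The Ring1 difference stood beside the somatic marker sums, which were also higher in aged libraries. Among the aged libraries, library 1 had the highest Ring1 level and the second highest of all 4 somatic sums. Aged library 2 had the highest of all 4 sums and the fourth highest Ring1 level, and aged library 3 the lowest Ring1 level and the lowest Leydig, Sertoli and peritubular sums. Without aged libraries 1 and 2 the Ring1 difference was 0.27 (95% interval 0.10 to 0.43, limma, adjusted p = 0.536). The aged libraries left still had Leydig sums of 11.0 to 17.7 FPKM and peritubular sums of 99.8 to 123 FPKM, above every young library. Their Sertoli and macrophage sums overlapped those of the young. That fit therefore does not separate other cells from age, and their part in the Ring1 difference was not tested. Among 7822 other genes that averaged 5 FPKM or more, those that varied most like Ring1 over the 10 libraries were Pin4, a prolyl isomerase (Pearson r = 0.918), Itgb2, a leukocyte integrin subunit (r = 0.907), and Dus2, a tRNA-modifying enzyme (r = 0.904). They were picked as the highest of many and share the libraries' age groups with Ring1, and so are given as a description. Pin4 averaged 11.1 ± 0.614 FPKM in the young and 14.8 ± 1.64 FPKM in the aged libraries (SD, n = 5). Itgb2 averaged 4.66 ± 0.219 and 5.53 ± 0.373 FPKM, and Dus2 7.54 ± 0.354 and 8.23 ± 0.279 FPKM.

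Rnf2, the other E3 subunit (ENSRNOG00000002454, chromosome 13, 68830620 to 68858809, minus strand), had overlapping age groups. It stood at 8.84, 9.92, 9.59, 9.65 and 9.64 FPKM in the young and at 9.0, 8.59, 10.09, 10.04 and 9.35 FPKM in the aged libraries. Young library 1 and aged library 2 were the lowest, with means of 9.53 ± 0.407 and 9.41 ± 0.652 FPKM (SD, n = 5). The log2 difference was -0.02 (SE 0.06, 95% interval -0.15 to 0.11). Ring1 was the more abundant of the pair in 10 of 10 libraries, at 2.06 to 2.30 times Rnf2 in young and 2.32 to 3.22 times in aged libraries. That ratio averaged 2.23 ± 0.103 in young and 2.82 ± 0.361 in aged libraries (SD, n = 5) and its groups did not overlap. It contains the Ring1 values for which the set was chosen, and was not tested.

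Bmi1 encodes a PCGF subunit that pairs with RING1 or RNF2 in canonical PRC1 (ENSRNOG00000016585, chromosome 17, 85364483 to 85368208, plus strand). Its levels were 31.11, 33.34, 32.86, 36.53 and 34.44 FPKM in the young and 34.19, 30.36, 33.16, 31.80 and 31.56 FPKM in the aged libraries. Young library 4 was the highest and aged library 2 the lowest, with the rest of the groups mixed. The means were 33.7 ± 2.01 and 32.2 ± 1.48 FPKM (SD, n = 5), a log2 difference of -0.06 (SE 0.05, 95% interval -0.17 to 0.05). Per unit of Ring1, Bmi1 stood at 1.46 to 1.74 in young and 1.13 to 1.42 in aged libraries, without overlap. This ratio, too, contains the Ring1 values for which the set was chosen, and was not tested. Bmi1 itself had overlapping age groups. The files also list a Bmi1-like gene on the X chromosome, RGD1562871, at 0.050 to 0.437 FPKM, and fragments shared by the pair could be assigned to either or dropped.

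Phc1 encodes a Polyhomeotic subunit, whose SAM domain joins PRC1 units into chains (ENSRNOG00000015191, chromosome 4, 155093949 to 155116154, minus strand). Its levels were 117.5, 110.3, 112.7, 115.9 and 126.1 FPKM in the young and 121.8, 110.7, 122.9, 115.2 and 103.7 FPKM in the aged libraries. The highest value was in young library 5 and the lowest in aged library 5, and the others interleave. The group means were 116.5 ± 6.03 and 114.9 ± 7.98 FPKM (SD, n = 5), with a log2 difference of -0.02 (SE 0.06, 95% interval -0.14 to 0.10). With 6450 to 8856 fragments per library Phc1 was the most deeply counted of the 10 genes.

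Scml2 (ENSRNOG00000003726, chromosome X, 35305236 to 35431164, minus strand) was low. It read 2.71, 1.95, 1.95, 2.41 and 2.68 FPKM in the young and 2.28, 2.24, 2.01, 2.04 and 2.26 FPKM in the aged libraries. The aged values all lay inside the young range, with means of 2.34 ± 0.375 and 2.17 ± 0.129 FPKM (SD, n = 5) and a log2 difference of -0.07 (SE 0.09). Scml2 lay above 23.5% of the 396 tested X-linked genes, whose median was 5.27 FPKM. Its 124 to 199 fragments per library were the fewest among the 8 tested genes. A pseudogene that the files place within it, AABR07037923.2, was at or near 0.

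Cbx2 and Cbx8 encode chromodomain proteins that read methylated histone H3 for canonical PRC1, and both stayed under 1 FPKM in every library. Cbx2 (ENSRNOG00000049215, chromosome 10, 108132105 to 108140935, plus strand) stood at 0.758, 0.409, 0.475, 0.284 and 0.674 FPKM in the young and 0.531, 0.439, 0.354, 0.524 and 0.590 FPKM in the aged libraries. Cbx8 (ENSRNOG00000048113, chromosome 10, 108148073 to 108150511, minus strand) stood at 0.349, 0.0837, 0.605, 0.369 and 0.620 FPKM in the young and 0.397, 0.404, 0.170, 0.351 and 0.271 FPKM in the aged libraries. The groups overlapped for both, and neither entered the age comparison. Summed over libraries, Cbx2 had 157 fragments in the young group and 156 in the aged. The 5 young libraries together held 43 Cbx8 fragments (95% Poisson interval 31.1 to 57.9) and the 5 aged ones 37 (26.1 to 51.0), intervals that cover counting error only. These intervals overlap.

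In PRC2, Ezh2 had the lowest coefficient of variation of the 10 genes, 3.95% over all libraries. Eed (4.73%), Rnf2 (5.45%), Bmi1 (5.55%) and Phc1 (5.81%) were close to it. The median was 12.2% over all tested genes, which were not matched to Ezh2 by level, and Ezh2 lay above 66.7% of them in level. Suz12 was the only one of the core genes whose age groups did not overlap. Ezh2, the methyltransferase (ENSRNOG00000006048, chromosome 4, 77284404 to 77347011, minus strand), stood at 18.08, 18.35, 17.67, 18.61 and 18.92 FPKM in the young and 18.26, 19.21, 20.29, 18.21 and 18.36 FPKM in the aged libraries. Apart from aged library 3 at 20.29 FPKM, all values lay within 17.67 to 19.21. The means were 18.3 ± 0.482 and 18.9 ± 0.893 FPKM (SD, n = 5), with a log2 difference of 0.04 (SE 0.05, 95% interval -0.06 to 0.14). The SD was 2.63% of the mean in young and 4.74% in aged libraries, on 721 to 983 fragments per library.

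Suz12 encodes the subunit that holds the PRC2 core together (ENSRNOG00000058663, chromosome 10, 67325347 to 67369668, plus strand). Its levels were 15.64, 14.19, 15.65, 14.07 and 15.97 FPKM in the young and 13.40, 12.43, 13.51, 13.98 and 13.15 FPKM in the aged libraries. Every aged library was below every young one, by a narrow gap between 14.07 FPKM in young library 4 and 13.98 FPKM in aged library 4. The means were 15.1 ± 0.900 and 13.3 ± 0.569 FPKM (SD, n = 5), a log2 difference of -0.17 (SE 0.05, 95% interval -0.29 to -0.05), or 0.818- to 0.964-fold. It did not pass adjustment over all genes (limma, adjusted p = 0.324). Spermatocyte markers were also lower on average in aged libraries, in 11 of 12 cases, and somatic markers higher. Without aged libraries 1 and 2 the Suz12 difference was -0.15 (95% interval -0.29 to -0.0003, limma, adjusted p = 0.675). The aged libraries left still had higher Leydig and peritubular sums than every young library. The part of spermatocytes and somatic cells in the Suz12 difference was not tested.

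Eed encodes the subunit that binds methylated histone H3 and stimulates EZH2 (ENSRNOG00000017509, chromosome 1, 154189260 to 154216340, minus strand). It stood at 12.36, 13.41, 13.30, 14.39 and 13.33 FPKM in the young and 12.55, 12.85, 14.01, 13.63 and 13 FPKM in the aged libraries. The aged values all lay inside the young range, with means of 13.4 ± 0.719 and 13.2 ± 0.597 FPKM (SD, n = 5) and a log2 difference of -0.01 (SE 0.05). Ezh2 over Eed was 1.29 to 1.46 in young and 1.34 to 1.495 in aged libraries. Ezh2 over Suz12 was 1.13 to 1.32 in young and 1.30 to 1.55 in aged libraries, which overlap narrowly. It averaged 1.22 ± 0.0856 in young and 1.42 ± 0.0999 in aged libraries (SD, n = 5). Suz12 over Eed was 0.978 to 1.27 in young and 0.965 to 1.07 in aged libraries. The ratios with Suz12 contain its values, known when the set was chosen, and were not tested.

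**Figure D3:**
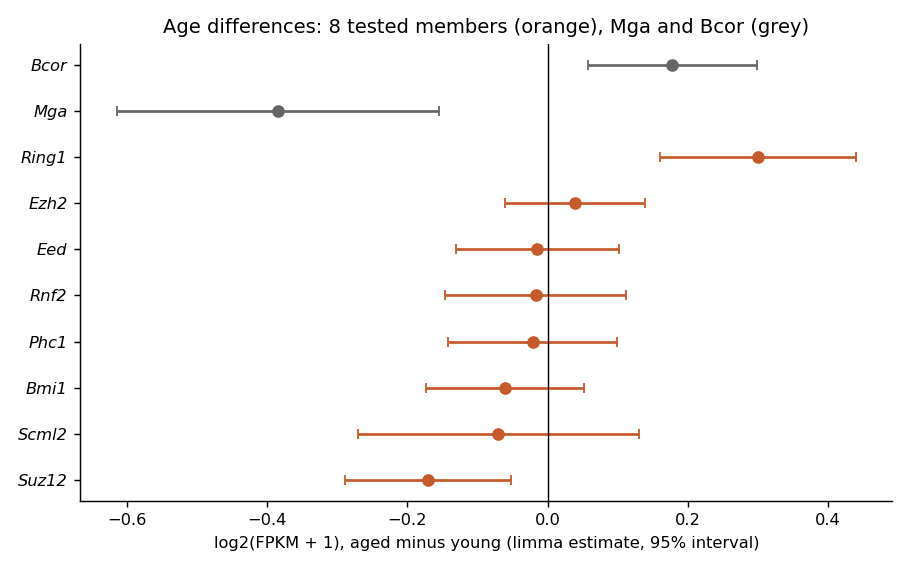
Aged minus young difference in log2(FPKM + 1), the limma estimate with its 95% interval, for the 8 tested Polycomb genes (orange) and for Mga and Bcor (grey), with a line at 0. The intervals of Ring1, Suz12, Mga and Bcor lie to one side of 0 and those of the other 6 genes include it; none of the 10 passed adjustment over all genes.

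Within their families of related genes, the members were not always the ones most expressed. Phc1 made up 83.2% to 87.4% of the summed FPKM of the PHC genes, ahead of Phc2 (mean 18.0 FPKM) and Phc3 (2.02 FPKM). Ezh2 made up 92.0% to 94.96% of its pair with Ezh1, the alternative methyltransferase (1.22 FPKM). Ring1 made up 67.3% to 69.7% of the sum of Ring1 and Rnf2 in young and 69.9% to 76.3% in aged libraries. Among the CBX genes compared the opposite held: Cbx7, which is no member of the set, made up 91.2% to 96.8% of the sum over Cbx2, Cbx6, Cbx7 and Cbx8 and averaged 23.9 FPKM. Of the PCGF genes Pcgf5 (46.6 FPKM), of the variant PRC1 complexes that lack a CBX subunit, was above Bmi1, and Pcgf6 (19.7 FPKM) was below Bmi1. Bmi1 made up 26.3% to 35.7% of the sum over Pcgf1, Pcgf3, Bmi1, Pcgf5 and Pcgf6. Pcgf2 matched no row, and a Pcgf2-like gene outside the sum, LOC100911274, averaged 1.14 FPKM. Scmh1 (66.3 FPKM) exceeded its relative Scml2 in every library.

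**Figure D4:**
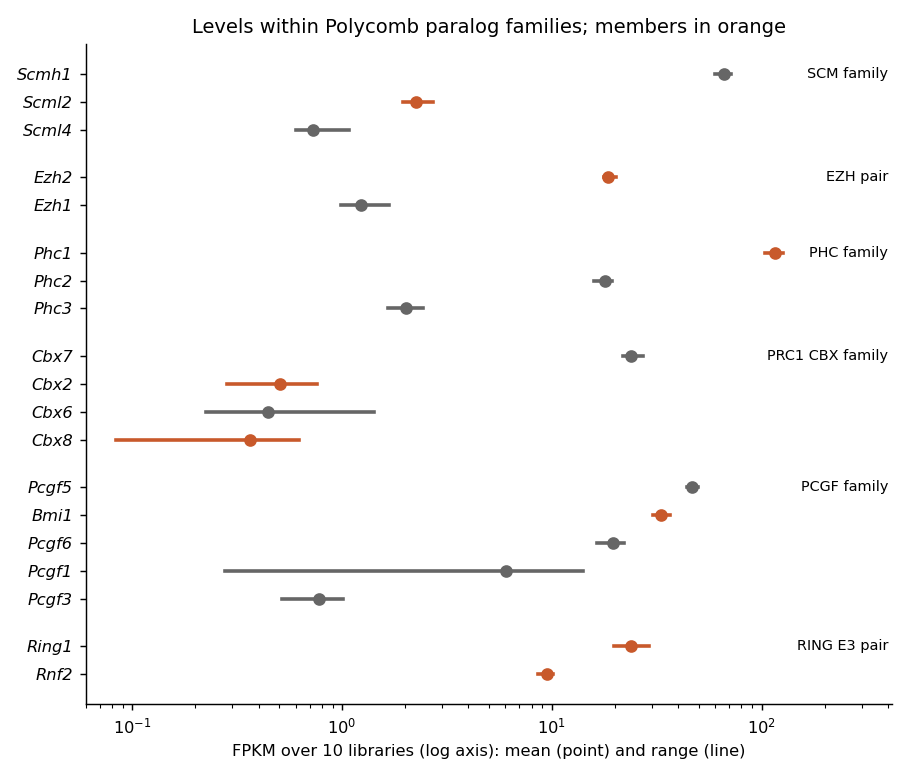
Mean FPKM (point) and range over the 10 libraries (line) on a log axis for genes grouped by family, with the members of the set in orange and related genes in grey. Phc1, Ezh2 and Ring1 lead their families, Cbx7 and Scmh1 stand above Cbx2, Cbx8 and Scml2, and Pcgf1 has the widest range, 0.276 to 14.09 FPKM.

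Beyond the 10 genes, 66 other genes of the Polycomb system were listed, of which 63 matched a row and 50 had a mean of at least 1 FPKM. Of the 50, 0 passed the adjusted threshold and 9 (18%) had an unadjusted p under 0.05 in limma, against 11.9% of all genes, and 2 (4%) had groups that did not overlap, against 2.6%. The first count varied with the libraries kept. Without aged library 2 it was 3 (6%), against 9.35% of all genes. Without young library 1, 2 or 3 or aged library 1 it was 5 (10%), against 8.88% to 9.98%. Without young library 4 or aged library 3 it was 6 (12%), against 9.27% and 12.8%. It was 8 (16%, against 13.3%) without aged library 4. It was 9 (18%, against 9.97%) without aged library 5 and 10 (20%, against 16.8%) without young library 5. With all libraries the median log2 difference of the 50 genes was -0.04, with 17 positive and 33 negative. Over all tested genes the median was -0.02 and 45.5% were positive. By complex, 3 genes were higher and 3 lower at an unadjusted p under 0.05 among 20 other PRC1 genes. The numbers were 0 and 0 of 9 other PRC2 genes, 0 and 2 of 14 genes of the deubiquitinase PR-DUB and the DNA-binding PhoRC complexes, and 0 and 1 of 7 enzymes that write or remove opposing marks. The pair without overlap both belong to variant PRC1. Bcor, a corepressor of the Pcgf1 complex, stood at 5.63, 5.62, 6.29, 5.80 and 6.11 FPKM in the young and 6.58, 7.05, 6.60, 6.94 and 6.79 FPKM in the aged libraries. All aged values were the higher, a log2 difference of 0.18 (SE 0.06; limma, adjusted p = 0.319). Mga, a scaffold of the Pcgf6 complex, stood at 6.67, 4.85, 5.29, 5.13 and 3.92 FPKM in the young and 3.87, 3.53, 3.45, 3.90 and 3.66 FPKM in the aged libraries. All aged values were the lower, with young library 5 at 3.92 and aged library 4 at 3.90 FPKM close together, a log2 difference of -0.38 (SE 0.10; limma, adjusted p = 0.319). The other 7 at an unadjusted p under 0.05, named here because of that, were Bcorl1 and Max, higher in aged libraries, and Pcgf6, L3mbtl2, Sfmbt1, Sfmbt2 and Ep300, lower.

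The most abundant of the other genes had overlapping groups. Among PRC1 partners, Skp1, an adaptor also used by other ubiquitin ligases, averaged 197.0 FPKM over the 10 libraries, the deubiquitinase Usp7 193.3 FPKM and Scmh1 66.3 FPKM. Among PRC2 partners these were the elongin Elob (210.9 FPKM), the Polycomb-like protein Phf1 (39.4 FPKM) and the histone chaperone Rbbp4 (31.0 FPKM). Bap1 (103.6 FPKM), the catalytic subunit of PR-DUB, was followed by its partners Asxl1 (68.4 FPKM) and Mbd6 (47.2 FPKM). Of the opposing enzymes, the H2A deubiquitinases Usp16 (78.9 FPKM) and Usp21 (6.84 FPKM) and the acetyltransferase Ep300 (7.48 FPKM) were highest. The log2 difference was -0.18 for both Rbbp4 (95% interval -0.38 to 0.01) and Ep300 (-0.34 to -0.02), and none of the 12 passed adjustment in limma.

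Genes that Polycomb is known to silence in other tissues were mostly near 0. Of 39 Hox genes, which pattern the body axis, 33 matched a single row, and 2 of these averaged at least 1 FPKM: Hoxd8 at 7.70 and Hoxc6 at 3.32 FPKM. The next, Hoxc9, averaged 0.802 FPKM, and 5 were at 0 in all 10 libraries. Of 48 further developmental targets 45 matched and 7 averaged at least 1 FPKM, led by the heart factor Nkx2-5 (7.80 FPKM), the cell cycle inhibitor Cdkn2b (4.16 FPKM) and the neural factor Lhx5 (2.50 FPKM). Lhx5 stood at 3.45, 3.16, 2.97, 2.35 and 2.54 FPKM in the young and 1.91, 2.23, 1.98, 2.30 and 2.11 FPKM in the aged libraries. All aged values were the lower, narrowly so against young library 4, a log2 difference of -0.32 (SE 0.09; limma, adjusted p = 0.319). It was 1 of 7 tested targets (14.3%) with an unadjusted p under 0.05, against 11.9% of all tested genes, and the 2 tested Hox genes had none. Under 1 FPKM, and so not tested, were 31 Hox genes and 38 further targets, of which 2 had groups that did not overlap. The share without overlap was 2.6% among all tested genes. Those averaged 1 FPKM or more and so are no like background for these low genes, and nothing is read from the count. In both genes the aged libraries were above. Tbx2 was at 0.250 to 0.457 FPKM in the young and 0.632 to 1.67 FPKM in the aged, and Sox17 at 0.0255 to 0.177 and 0.185 to 0.734 FPKM. Both were highest in aged library 2, the library with the highest somatic marker sums, whose part in this was not tested.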

How the data were processed

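Round spermatid mRNA was sequenced in 10 libraries, 5 per age, grouped by the labels. The values are FPKM as deposited by the authors, 1 file per library, per the file headers. Alignment and counting tools were HISAT2, version 2.0.5, and featureCounts, version 1.5.0-p3, going by the submitters' processing notes. What build or strand setting they used is not given in the sources used, so overlapping or near-identical genes may share fragments. Because FPKM keeps whole steps, fragments were recovered: 100% of values above 0 came out whole within a tolerance of 0.001, and 1 FPKM over 1 kilobase stands for 14.6 to 18.6 fragments. The library size behind the deposited FPKM was not the plain sum of fragments. It was 0.966 (young library 5) to 1.025 (aged library 2) times that sum.

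Age was tested with limma 3.58.1 in R 4.3.3 (lmFit, eBayes with a trend, two-sided) on log2(FPKM + 1) for the 12985 genes that averaged 1 FPKM or more, with Benjamini-Hochberg adjustment over all of them and a threshold of 0.05. Fold values come from that scale and so understate the change of a low gene. The test was checked on simulated data. Same-numbered young and aged libraries did not deviate together (correlations of -0.158 to 0.054), so no pairing was used.

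The members and all gene lists were chosen with earlier results of these data known. Apart from the members, genes are named by level (the 3 highest of a Polycomb or target list, the 2 highest of a marker list where given), by groups that do not overlap, by an adjusted p under 0.05, or, for Ring1, by the 3 highest correlations. Outside this rule, relatives in a member's gene family are named to give its share, and some markers for a level of 0 or for their direction; others are said to be chosen after their values were seen. Eloc and Elob were matched through RefSeq synonyms; Pcgf2, Epop and Ezhip matched no row. Results on 1 withheld item are left out. Alternatives were a pseudocount of 0.1, no filter or a filter at 5 FPKM, median-of-ratios, TPM and quantile scaling, voom on the recovered fragments, a replicate block, and leaving out each library or aged libraries 1 and 2 together.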

Additional observations from a re-analysis of the deposited data

Results flagged for a closer look

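Of 158 groups of 5 values examined (the 10 members, the 63 other Polycomb genes with a row and 6 named target genes, by age), 9 held a library far from the other 4 by Dixon's criterion, which chance meets in about 1 in 20 groups. None belongs to the 10 members. Among PRC1 and PRC2 genes, Usp7 was lowest in young library 1, at 161.4 FPKM against 188.0 to 196.2 FPKM in the other young libraries. Pcgf3 was highest in young library 1, at 0.986 FPKM against 0.629 to 0.712 FPKM. Eloc was highest in young library 4, at 12.96 FPKM against 11.55 to 11.73 FPKM. Cbx6 was highest in aged library 2, at 1.41 FPKM against 0.282 to 0.510 FPKM in the aged libraries besides.

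Among the PR-DUB genes, Asxl1 was highest in aged library 3, at 73.15 FPKM against 67.5 to 68.9 FPKM, and Asxl2 lowest in young library 5, at 9.50 FPKM against 11.65 to 11.998 FPKM. The glycosyltransferase Ogt was highest in young library 4, at 4.94 FPKM against 4.02 to 4.24 FPKM, and its partner Hcfc1 in aged library 1, at 2.82 FPKM against 2.64 to 2.66 FPKM. Usp21, an opposing deubiquitinase, was highest in aged library 2, at 7.40 FPKM against 6.79 to 6.95 FPKM.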

How the results depend on the processing

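Ring1 and Suz12 were the 2 members with an unadjusted p under 0.05 in limma or voom in each of the 19 alternatives, and neither passed adjustment in any. Over all tested genes that share ran from 7.32% (without aged libraries 1 and 2) to 16.8% (without young library 5). Without aged libraries 1 and 2 Suz12 was close to the threshold (limma, unadjusted p = 0.0496). The alternatives reuse the same libraries, and the set was chosen with these differences known, so nothing is read from the repeats. Their log2 differences ranged from 0.27 to 0.34 (adjusted p 0.178 to 0.536) and from -0.19 to -0.15 (adjusted p 0.236 to 0.675). The sign of Cbx2, Eed, Phc1 and Rnf2 varied with the setting, within -0.08 to 0.04.

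Over all genes, 0 passed adjustment except in 2 of the 10 fits that left out a library, where the count was 1 (range 0 to 1): SNORD14 without young library 1 (adjusted p = 0.000164) and AC117925.6 without young library 2 (adjusted p = 0.0277), both chosen after their values were seen and neither a Polycomb gene. At an unadjusted p under 0.05 the count of 1544 became 2379 with no filter, 887 with a filter at 5 FPKM and 939 without aged libraries 1 and 2. Of these genes 46.6% were higher in aged libraries with the deposited values, 63.4% with TPM scaling and 61.4% with voom. The median over all genes moved by less than 0.1 in every scaling.

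The 9 other Polycomb genes at that threshold became 5 with a filter at 5 FPKM and 4 without aged libraries 1 and 2. They became 3 to 10 when a single library was left out (3 without aged library 2, 10 without young library 5). They became 5 without young library 1, 2 or 3 or aged library 1. With the replicate block they were 4, all genes 1255 and the members 2. The libraries share a number and no stated source, and only young library 3 correlated best with the library of its own number (r = 0.0097). Mga averaged under 5 FPKM and so was not tested with that filter. Depth limits Cbx2 and Cbx8, with 2 to 48 fragments per library.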

Other observations

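Pcgf1, the PCGF subunit of the complex that contains Bcor, varied more between libraries than 97.8% of the tested genes and was singled out after its values were seen. It stood at 14.09, 4.54, 0.383, 3.0 and 12.20 FPKM in the young and 0.344, 7.79, 0.276, 12.07 and 5.98 FPKM in aged libraries. Both groups held libraries near 0 and libraries near 12 FPKM, a 51.0-fold span on 6 to 298 fragments. The other PCGF genes did not show this: Pcgf5 stayed within 43.87 to 49.86 FPKM and Bmi1 within 30.36 to 36.53 FPKM.

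Rbbp7, a histone chaperone of PRC2 on the X chromosome, also singled out after its values were seen, reached 9.08 FPKM in aged library 2 and stayed within 2.07 to 4.90 FPKM in the other 9. Its share of the summed FPKM of Rbbp4 and Rbbp7 was 5.40% to 10.04% in young and 7.71% to 23.9% in aged libraries, with the highest shares in aged libraries 2 and 1. Those are also the libraries with the highest Leydig, Sertoli, peritubular and macrophage marker sums. The part of those cells in the Rbbp7 values was not tested.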
